A study of Mus musculus with 230 samples.

Results

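Nerve injury at 8 months was examined in dorsal root ganglion (DRG) sensory neurons, in 3 low-input RNA libraries labelled injury and 3 labelled intact. These were the count columns whose names carry the age of 8 months, an l (intact) or r (injury), and a replicate number. Whether l and r stand for left and right is not said. The columns were 6 of the 18 low-input columns and of 87 count columns in all. Behind them stand 9 of the 230 samples of the series, because some libraries were entered more than once under 1 name. All animals came from C57BL/6 X CAST/Ei crosses, and the injury was to the sciatic nerve. The protocol in the labels has ganglia of L4 and L5 digested with enzymes and sensory neurons picked by hand, and the cytoplasm was used for SMART-seq2 libraries while the nucleus went to bisulfite sequencing, which was not analysed here. The sources used here do not give the time between injury and collection, how many neurons or animals went into a library, or whether intact neurons came from other animals than injured ones. The p-values therefore measure the spread between these libraries, which may be technical. Injured and intact libraries of 1 and 12 months, 3 of each, from the same cross, served to estimate the spread between libraries and to compare ages.

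Cutting or crushing a peripheral nerve starts a change of gene expression in the cell bodies of the neurons whose axons run in it. Transcription factors such as ATF3 and JUN are switched on, genes for growth cones and secreted peptides follow, and many genes of the resting sensory neuron are turned down. Sensory neurons of the DRG fall into large-diameter neurofilament (NF) cells, which serve touch and position sense, and small non-peptidergic (NP) and peptidergic (PEP) cells, many of which serve pain, itch and temperature.

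The 6 libraries held 3956440 to 6023691 counts after removal of the spike-in controls (ERCC) and of CT010467.1, 1 annotated feature that took 41.6% to 59.7% of the remaining counts in injured and 65.7% to 68.2% in intact libraries. Spike-ins took 2.30% to 11.6% of all counts in injured and 3.11% to 26.9% in intact libraries, and 15395 to 18325 genes were detected after injury against 13030 to 14764 in intact neurons. Injured and intact libraries did not overlap in the share of CT010467.1 or in genes detected. For both, the exact two-sided permutation test gave p = 0.1, the smallest that 3 against 3 libraries allow. Depth also differed, at 4332515 to 6023691 counts in injured and 3956440 to 4574940 in intact libraries. The part of depth in the genes detected was not tested. All 6 libraries held the general neuronal markers, with Tubb3 at 2483 to 11258, Uchl1 at 2293 to 3249 and Avil at 691 to 1428 CPM (counts scaled to a common library size, as described under processing). Defining markers of immune cells were near 0, since the 20 markers summed to 16.8 to 26.7 CPM in injured and 3.17 to 9.58 CPM in intact libraries. Satellite glia markers were present, at 1235 to 2472 CPM summed over 15 markers after injury and 802 to 1440.1 CPM in intact neurons. In such samples, fewer cells of a type and less RNA per cell cannot be told apart.

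The first injured library stood apart from the other injured ones. Its Spearman correlation over 14084 genes was 0.882 with injured replicate 2 and 0.910 with replicate 3, while these 2 correlated at 0.959, and its correlation with intact replicates 2 and 3 was 0.905 and 0.894. It held less RNA of large-fibre markers and more of interferon-response genes, as described below. CT010467.1 took 59.7% of its endogenous counts, against 45.4% and 41.6% in injured replicates 2 and 3. Spike-ins took 11.6% of its counts, against 2.67% and 2.30%. It held 4332515 counts after removal of these, against 6023691 and 5790243, and 15395 detected genes, against 17713 and 18325. The part of these measures in its differences was not tested. The first intact library also differed, with correlations of 0.830 and 0.791 with the other intact libraries against 0.881 between those. NP markers summed to 243 CPM there, against 5974 and 3623 CPM in intact replicates 2 and 3, and PEP markers to 9381 CPM against 2920.5 and 529 CPM. The picked cells thus differed in subtype markers between replicates of 1 group, and the part of this in the results was not tested.

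Against intact neurons, 138 of 14084 genes tested (0.98%) were called at an adjusted p below 0.05. Of these, 132 were higher after injury (0.937%) and 6 lower (0.0426%), while the median log2 change over all genes tested was 0.00. At an unadjusted p below 0.05 there were 1663 genes (11.8%). The 3 injured libraries lay above the 3 intact ones for 1297 genes (9.21%) and below them for 707 (5.02%); this held for 131 of the 132 higher and for all 6 lower calls, with Car1, a carbonic anhydrase, the exception. Intact neurons held no count at all for 58 of the 138 genes and 1 to 3 counts for 19 more, so that most of the called changes were from about 0 to a measurable level, and for these genes folds are given as lower bounds against a floor of 3 counts over the intact group, or as ratios of counts. The fitted log2 change of such genes depends on the prior count.

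**Figure D1:**
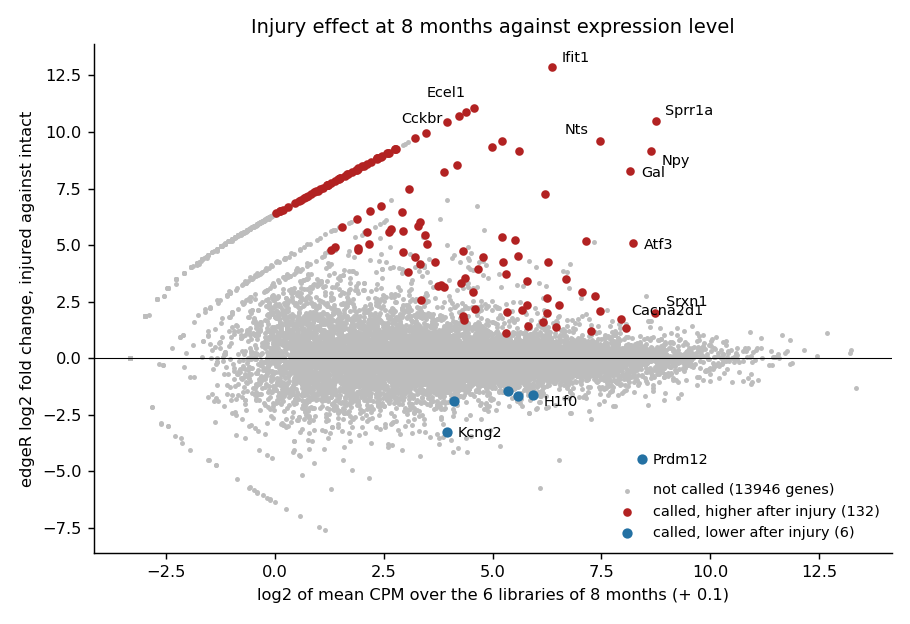
Log2 fold change of each of 14084 genes, injured against intact at 8 months (vertical axis), against the log2 of its mean CPM over the 6 libraries (horizontal axis). The 132 higher calls (red) include many genes of low level, and the 6 lower calls (blue) include Prdm12.

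The number of calls depended on single libraries and on the fit. It was 249 of 14845 genes (1.68%) without injured replicate 1, of which 241 were higher (1.62%) and 8 lower (0.0539%), but 27 without injured replicate 2, 41 without injured replicate 3 and 55 without intact replicate 2. Without injured replicate 1, 123 of the 138 calls were shared. In each of the 6 fits that left out 1 library of 8 months, the same 24 genes were called, namely Ecel1, Fscn1, Gal, Ucn, Cckbr, Draxin, Gabra5, Npy, Nts, Pappa2, Prr15, Sprr1a, Star, Tes, Tspan8, Tubb6, Cryba2, Fhl2, Prex2, Slc1a7, Slfn9, Sox9, Srxn1 and Tmem88b, a set chosen after the values were seen. Every other gene of the 138 named below lost its call in at least 1 of these 6 fits. A fit of the 6 libraries of 8 months alone called 4 genes (Ecel1, Fscn1, Gal and Ucn), and limma-voom with quality weights called 3.

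The promoters of some of the genes described below are shown first, because they carry letters that the files allow to be compared across genes. Each is a RefSeq window of GRCm38.p6, from 250 bases before to 50 after the start of the gene, written 5′ to 3′ on the strand of the gene. In the first 3, capitals mark TGANTCA, the binding motif of the AP-1 family of factors to which ATF3 and JUN belong, searched on both strands (it reads the same on each). Sprr1a (chr3:92485832-92486131, minus strand), Nts (chr10:102490369-102490668, minus strand) and Srxn1 (chr2:152105274-152105573, plus strand) hold 2, 1 and 2 matches.
Sprr1a: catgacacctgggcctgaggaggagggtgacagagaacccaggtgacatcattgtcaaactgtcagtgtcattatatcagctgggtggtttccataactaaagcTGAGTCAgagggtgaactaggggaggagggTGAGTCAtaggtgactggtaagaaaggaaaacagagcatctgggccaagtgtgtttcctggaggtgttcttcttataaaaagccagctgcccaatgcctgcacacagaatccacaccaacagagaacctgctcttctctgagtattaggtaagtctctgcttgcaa
Nts: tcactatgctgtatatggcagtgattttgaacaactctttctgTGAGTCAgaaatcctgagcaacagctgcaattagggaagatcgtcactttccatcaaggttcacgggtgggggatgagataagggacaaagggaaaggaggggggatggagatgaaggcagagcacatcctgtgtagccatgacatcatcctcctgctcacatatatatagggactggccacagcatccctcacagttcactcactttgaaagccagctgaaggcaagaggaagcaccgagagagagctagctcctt
Srxn1: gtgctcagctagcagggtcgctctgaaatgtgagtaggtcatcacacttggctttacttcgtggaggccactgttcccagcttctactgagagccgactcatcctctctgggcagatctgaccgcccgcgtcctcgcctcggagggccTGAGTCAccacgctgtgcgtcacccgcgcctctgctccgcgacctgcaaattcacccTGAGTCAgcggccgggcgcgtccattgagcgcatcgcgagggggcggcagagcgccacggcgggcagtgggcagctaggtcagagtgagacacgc
In the other 2, capitals mark GAAA, any 2 bases and GAAA again, the core of the interferon-stimulated response element, searched on both strands (on the other strand it reads TTTC, any 2 bases and TTTC), and in Ifit3 also 1 AP-1 match nearer the start. Ifit1 (chr19:34640639-34640938, plus strand) and Ifit3 (chr19:34583279-34583578, plus strand) each hold 2 matches to it.
Ifit1: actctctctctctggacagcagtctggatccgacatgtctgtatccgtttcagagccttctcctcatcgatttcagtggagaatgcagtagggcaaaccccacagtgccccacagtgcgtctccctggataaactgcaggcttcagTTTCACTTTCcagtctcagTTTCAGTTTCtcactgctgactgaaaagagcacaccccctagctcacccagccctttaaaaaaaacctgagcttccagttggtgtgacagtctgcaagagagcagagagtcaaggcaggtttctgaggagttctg
Ifit3: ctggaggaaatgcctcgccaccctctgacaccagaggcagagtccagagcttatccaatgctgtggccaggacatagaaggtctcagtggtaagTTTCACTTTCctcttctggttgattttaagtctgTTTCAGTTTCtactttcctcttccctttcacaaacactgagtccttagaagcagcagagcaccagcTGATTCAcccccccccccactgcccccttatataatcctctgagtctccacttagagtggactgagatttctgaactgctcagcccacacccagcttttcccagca
The AP-1 motif was in 7.81% of all 32851 promoter windows, in 6.12% of the 10423 tested genes that have a window, and in 14 of 103 (13.6%) of the genes called higher that have one. The interferon motif was in 3.44% of windows, 3.40% of tested genes, 15 of 35 (42.9%) of the tested interferon-response genes with a window and 6 of 103 (5.83%) of the genes called higher. No match to either motif lies in these windows of Gal, Npy, Atf3, Ecel1, Ucn, Fscn1 or Cckbr. The Atf3 window (chr1:191183284-191183583, minus strand) lies inside the gene as annotated for the counts (191170296 to 191218039). The start at the outer end of that annotation was not searched. A match is a description of the letters only.

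Among injury transcription factors, 2 of 17 tested members rose and 0 fell (0.937% and 0.0426% of all genes), with a median log2 change of 0.93 against 0.00 over all genes. Atf3, the best known marker of axotomised sensory neurons, was at 183, 924 and 628 CPM in the 3 injured libraries and at 4.64, 4.48 and 42.0 CPM in the intact ones. The groups did not overlap, and the log2 change was 5.07 ± 0.92 (SE; adjusted p = 0.0168; 5.50 and adjusted p = 0.00568 without injured replicate 1). Crem, a cAMP-responsive modulator of transcription, rose by a log2 change of 3.19 ± 0.65 (adjusted p = 0.0268), from 0.498 to 4.02 CPM in intact to 7.5 to 36.7 CPM in injured libraries. Both calls were lost without injured replicate 2 and without intact replicate 2 (0 members called). Of the 6 fits that left out 1 library of 8 months, Atf3 was called in 4 and Crem in 2. The other known members were not called. Jun was at 105, 449.8 and 373 CPM after injury and at 86.6, 267 and 75.3 CPM in intact neurons, so the groups overlapped. Sox11, a developmental factor that supports axon growth, lay above the intact libraries in each injured library (38.1, 48.7 and 38.5 against 0, 11.2 and 17.8 CPM), and its log2 change was 2.10 ± 0.90 (adjusted p = 0.36). Stat3, Klf7, Myc, Egr1 and Fos overlapped between the groups.

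The secreted peptides and factors known from injured neurons held the highest share of calls among the lists, 5 of 15 tested members (0.937% of all genes), with 6 without injured replicate 1 and 5 to 6 in each fit that left out 1 library of 8 months. Summed over the list, injured libraries held 1300, 3406 and 2250.4 CPM and intact ones 41.2, 57.7 and 33.3 CPM. The median log2 change was 6.16, or 4.06 with genes that had no intact count set at their bound; the list was chosen with earlier results of these data known, so its direction is no independent evidence. Gal, the neuropeptide galanin, was at 563, 571 and 574 CPM after injury and at 1.71, 2.49 and 1.34 CPM in intact neurons. The injured values lay close together, at 569.5 ± 5.83 (SD, n = 3) against 1.85 ± 0.59 CPM, and the log2 change was 8.27 ± 1.26 (adjusted p = 0.00989). Npy, neuropeptide Y, was at 225, 1227 and 921 CPM against 0.976, 0 and 2.87 CPM. Nts, neurotensin, was at 119, 695 and 254 CPM against 0, 0.498 and 0.766 CPM. In both, the first injured library was the lowest of the injured ones and still far above every intact library. Their log2 changes were 9.17 ± 1.31 (adjusted p = 0.00368) and 9.58 ± 0.99 (adjusted p = 0.00015).

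Ucn, urocortin, a peptide of the corticotropin-releasing family, was at 39.6, 97.8 and 84.7 CPM against 1 count in the 3 intact libraries, a ratio of 1028 (95% interval 184 to 40623, counting error only; adjusted p = 0.000359). Pappa2, a protease that cuts insulin-like growth factor binding proteins, was at 5.14, 77.4 and 42.9 CPM and at 0 in all intact libraries, at least 200.3-fold higher (adjusted p = 0.0137). It was lowest by far in the first injured library. Adcyap1, the peptide PACAP, was not called despite groups that did not overlap: 213, 489 and 238 CPM against 23.7, 0.995 and 2.11 CPM, or 5.14 ± 1.21 on the log2 scale (adjusted p = 0.0583). Csf1, which recruits microglia, was at 83.5, 88.7 and 51.5 CPM against 11.2, 28.1 and 0.766 CPM, and Bdnf at 39.4, 91.3 and 45.0 CPM against 3.66, 18.4 and 15.5 CPM. Neither was called. Vip, Lif, Il6 and Reg3b were at or near 0 and were not tested. None of the 5 tested peptides of the resting ganglion was called, and Calca, which encodes CGRP, ranged from 388 to 6185 CPM among intact libraries alone, around the injured values of 1059.6 to 1396 CPM.

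Of 30 tested genes of axon growth and the cytoskeleton, 4 rose and 0 fell (0.937% and 0.0426% of all genes; 5 rose without injured replicate 1), the median log2 change was 1.03, and the injured libraries lay above the intact ones for 14 of them and below for 1, against 9.21% and 5.02% of all genes. Sprr1a, a small proline-rich protein of growing axons (chromosome 3, 92483952 to 92485895, minus strand), was at 140.1, 1601 and 845 CPM against 0.244, 0 and 1.34 CPM. The first injured library was the lowest here too, and the log2 change was 10.49 ± 1.13 (adjusted p = 0.000193; 1.18e-05 without injured replicate 1). Tubb6, a beta tubulin, was at 108, 419.5 and 302 CPM against 2.68, 15.2 and 4.79 CPM (log2 change 5.20 ± 0.70, adjusted p = 0.00187). Flrt3, a membrane protein of cell adhesion and axon guidance, was at 138, 310 and 258 CPM against 29, 16.4 and 46.6 CPM (log2 change 2.94 ± 0.58, adjusted p = 0.0238). Ecel1, a neuronal endopeptidase known to be induced by axon damage, was at 51.6, 46.8 and 43.4 CPM and had no count in intact neurons, at least 208-fold higher (adjusted p = 0.00865).

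The long-known growth marker Gap43 was not called: its intact libraries held 1424, 348 and 6.32 CPM, a range that holds all but 1 of the injured values of 1139, 1512 and 1023 CPM. Stmn2, a tubulin-binding protein, was at 3079, 5474 and 4264 CPM against 2894, 1499 and 1967 CPM, without overlap and without a call. The same held for Lgals1, at 941, 854 and 785 CPM against 319, 257 and 449.9 CPM, and for Gfra1, at 337, 1078 and 518 CPM against 0, 127 and 158 CPM. Basp1, a membrane protein of growth cones, was the 1 member whose injured libraries lay below the intact ones (86.9, 74.1 and 44.2 against 131, 362 and 133 CPM), also without a call. Outside the list, Fscn1, which bundles actin in filopodia, had the lowest adjusted p of all genes, 5.95e-06. It was at 83.1, 99.5 and 107 CPM against 2 counts in 1 intact library, a ratio of 652 (95% interval 180.1 to 5386). Draxin, a secreted axon guidance protein, was at 10.5, 22.7 and 22.5 CPM and at 0 in intact neurons, at least 85.6-fold higher (adjusted p = 0.00109).

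**Figure D2:**
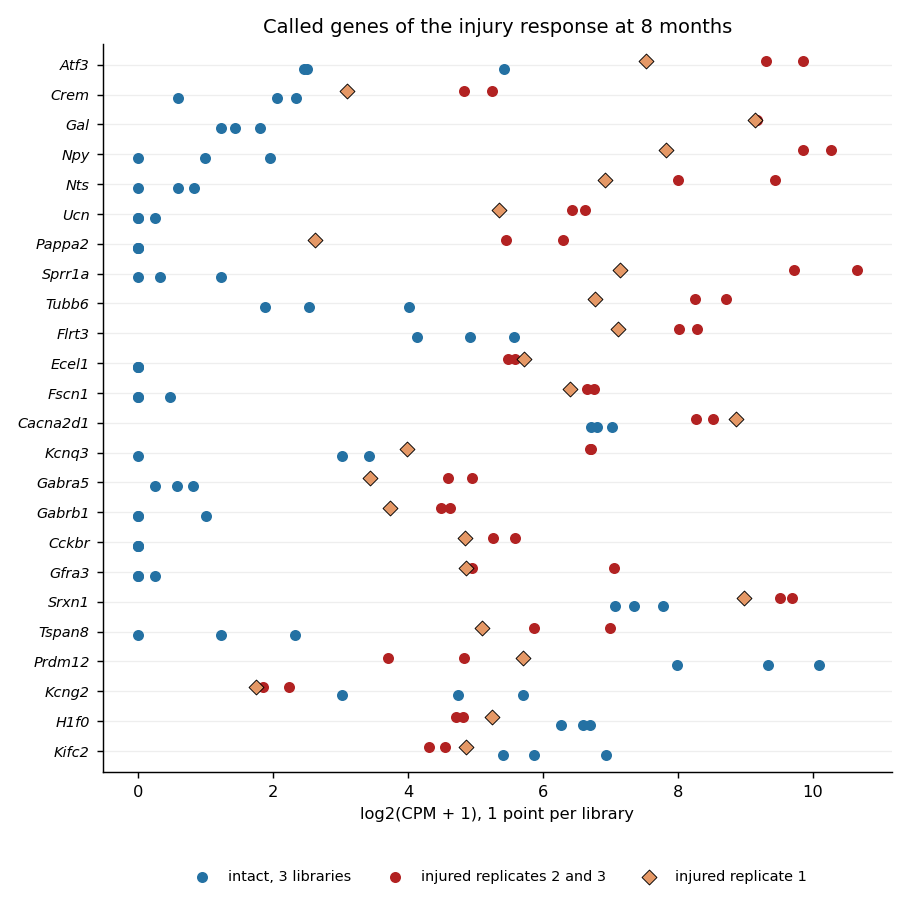
Log2(CPM + 1) of selected called genes in each library of 8 months (horizontal axis), with 1 point per library. For the higher genes the 3 injured libraries (red, with the first as an orange diamond) lie to the right of the 3 intact ones (blue), and for Prdm12 and the other lower genes they lie to the left.

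Most ion channels overlapped between the groups. Of 23 sodium and calcium channel genes, 1 rose, and of 44 potassium and HCN channel genes, 1 rose and 1 fell, against 0.937% and 0.0426% of all genes; the median log2 changes were -0.46 and -0.52. Cacna2d1, the calcium channel subunit that binds gabapentin, was at 464, 305 and 366 CPM after injury and at 103, 129 and 110.2 CPM in intact neurons (log2 change 1.73 ± 0.34, adjusted p = 0.0239). The first injured library was the highest here, and the call held without it (1.57, adjusted p = 0.0414), but not in any of the other fits that left out 1 library of 8 months. Kcnq3, a subunit of the M current that damps firing, was at 14.8, 104 and 103 CPM against 0, 9.70 and 7.09 CPM (log2 change 3.71 ± 0.82, adjusted p = 0.0412). Kcng2, a modifying subunit of voltage-gated potassium channels, was at 2.36, 2.59 and 3.72 CPM against 25.6, 50.8 and 7.09 CPM (log2 change -3.25 ± 0.71, adjusted p = 0.037), and was not called without injured replicate 1 (adjusted p = 0.0752). Scn10a and Scn9a, sodium channels of nociceptors, were not called: Scn9a was at 414, 365 and 382 CPM against 516, 622 and 538 CPM, and Scn10a at 1729.6, 379 and 708 CPM against 1712, 2456 and 1725 CPM. None of the 17 tested sensory transduction channels was called, and for Trpm8, the cold receptor, intact replicate 1 held 118 CPM while the other 5 libraries held at most 3.72 CPM.

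Receptors gave 4 calls in 2 lists. Of 23 tested opioid, cannabinoid, GABA and peptide receptor genes, 3 rose (0.937% of all genes; 5 without injured replicate 1, against 1.62%) and the median log2 change was 0.06. Cckbr, the cholecystokinin B receptor, was at 27.6, 37.1 and 46.9 CPM and at 0 in all intact libraries, at least 169-fold higher (adjusted p = 0.00015). Gabra5, a GABA-A receptor subunit, was at 9.85, 23.1 and 29.9 CPM against 0.488, 0.746 and 0.192 CPM (log2 change 5.45 ± 0.77, adjusted p = 0.00266). Gabrb1, another subunit, was at 12.2, 23.5 and 21.4 CPM against 0, 0.995 and 0 CPM (log2 change 5.84 ± 1.17, adjusted p = 0.0256); its exons overlap those of Gabra4 on the other strand, which the unstranded counting cannot separate. The peptide receptors Galr1, Galr2 and Npy1r were at no more than 9.87 CPM in any library and were not called. Cnr1, the cannabinoid receptor CB1, was at 0, 4.05 and 12.8 CPM against 0, and was called without injured replicate 1 but not with it (adjusted p = 0.0291 and 0.123). Among neurotrophic and GDNF-family receptors, 1 of 10 rose: Gfra3, the co-receptor for artemin, was at 27.8, 29.9 and 131 CPM against 1 count in the intact libraries, a ratio of 880.5 (95% interval 158 to 34807; adjusted p = 0.0276). Gfra3 is also a peptidergic marker, and the call was lost in each fit that left out 1 library of 8 months other than injured replicate 1.

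Only 6 genes were called lower, while the injured libraries lay below the intact ones for 707 genes (5.02%). The number depended on the fit, with 88 lower calls under DESeq2 and 128 with no filter beyond 1 count. Prdm12, a transcription factor required to form nociceptors (chromosome 2, 31640037 to 31655795, plus strand), was at 51.0, 12.0 and 27.4 CPM after injury and at 644, 1083 and 253 CPM in intact neurons. The groups were far apart, with a log2 change of -4.46 ± 0.73 (adjusted p = 0.00986; -5.06 and adjusted p = 0.00658 without injured replicate 1). The call was lost without injured replicate 2 (-4.07, adjusted p = 0.0541) and without injured replicate 3 (-4.39, adjusted p = 0.0506), under spike-in scaling (-3.41, adjusted p = 0.15) and in the 6 libraries of 8 months alone (adjusted p = 0.362). Its exons overlap the antisense gene Gm13425, which held 3801 counts in the 6 libraries and was itself called lower without injured replicate 1 (-2.39, adjusted p = 0.0489), and the 2 cannot be told apart where they overlap. Prdm12 was the 1 called member of 23 sensory identity transcription factors, whose median log2 change was -0.54. Tlx2, a homeobox factor of that list, was at 138, 105 and 86.4 CPM against 238, 400.1 and 192 CPM and was called lower without injured replicate 1 but not with it (-1.52, adjusted p = 0.0474; 0.0582 with it). Isl1, Pou4f1 and Prrxl1, factors shared by most DRG neurons, overlapped between the groups.

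The other lower genes changed less. H1f0, a linker histone, was at 36.8, 27.2 and 25.3 CPM against 102, 95.5 and 76.3 CPM (log2 change -1.62 ± 0.28, adjusted p = 0.0127), and was not called without injured replicate 2 (adjusted p = 0.0747), without injured replicate 3 (0.0667) or with the replicate block (0.109). Yaf2, a partner of Polycomb proteins, changed by -1.47 ± 0.29, Kifc2, a kinesin, by -1.67 ± 0.38, and Lurap1l by -1.88 ± 0.40; these 3 and Kcng2 were not called without injured replicate 1, 2 or 3. When libraries were scaled to the ERCC spike-ins, which moved the median of all genes to 2.02 on the log2 scale, 598 genes were called higher and 0 lower, and the changes of H1f0, Yaf2 and Kifc2 turned positive (0.13, 0.25 and 0.44), so their direction holds only relative to the other genes of the library.

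Interferon-response genes had their highest levels in the first injured library. Of 46 tested members (12 more were not tested), 6 rose and 0 fell (0.937% and 0.0426% of all genes), and 19 had injured libraries above all intact ones and 1 below (9.21% and 5.02% of all genes). The median log2 change was 1.76, or 1.65 with genes without intact counts at their bound. Without injured replicate 1, 3 members were called (Ifit1, Mx1 and Ifitm3) and the median was 0.76; 0 members were called without injured replicate 2, intact replicate 2 or intact replicate 3, and 2 without injured replicate 3 or intact replicate 1, not all of them among the 6. Summed over the list, the libraries held 2953, 1296 and 970.4 CPM after injury and 765, 819 and 686 CPM in intact neurons, which did not overlap (exact permutation p = 0.1, the smallest possible).

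Ifit1, a protein that binds foreign RNA (chromosome 19, 34640871 to 34650009, plus strand; its promoter is shown above), was at 385, 78.3 and 33.7 CPM and had no count in intact libraries, at least 649.6-fold higher (adjusted p = 0.0309; 0.0319 without injured replicate 1). It was highest in the first injured library and lowest in the third. Mx1, an antiviral GTPase, was at 26.8, 6.96 and 1.94 CPM against 1 count in each intact library, a ratio of 47.0 (95% interval 15.8 to 230.0; adjusted p = 0.0234). Ifit3 and Ifit3b were at 25.3, 2.91 and 3.24 CPM and at 21.2, 4.53 and 1.46 CPM, with 1 and 0 intact counts (adjusted p = 0.0376 and 0.0386). These 2 are near-identical copies whose reads may have been split or lost in counting. Ifitm3, which blocks the entry of viruses, differed in pattern, with 8.78, 8.90 and 7.28 CPM in the 3 injured libraries against 2 counts in intact replicate 1. Ifi44 was at 4.71, 3.72 and 1.62 CPM against 0. Among members not called, Usp18, an inhibitor of the interferon receptor, was at 40.0, 3.40 and 6.15 CPM against 0 (adjusted p = 0.0636), Bst2 at 43.7, 4.69 and 4.05 CPM against 0.976, 0.746 and 1.34 CPM, Oasl2 at 101, 39.7 and 54.2 CPM against 14.6, 7.22 and 0.575 CPM, and Mx2 at 340.1, 189.9 and 92.4 CPM against 48.3, 76.1 and 46 CPM. All 4 lay above the intact libraries in each injured library.

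**Figure D3:**
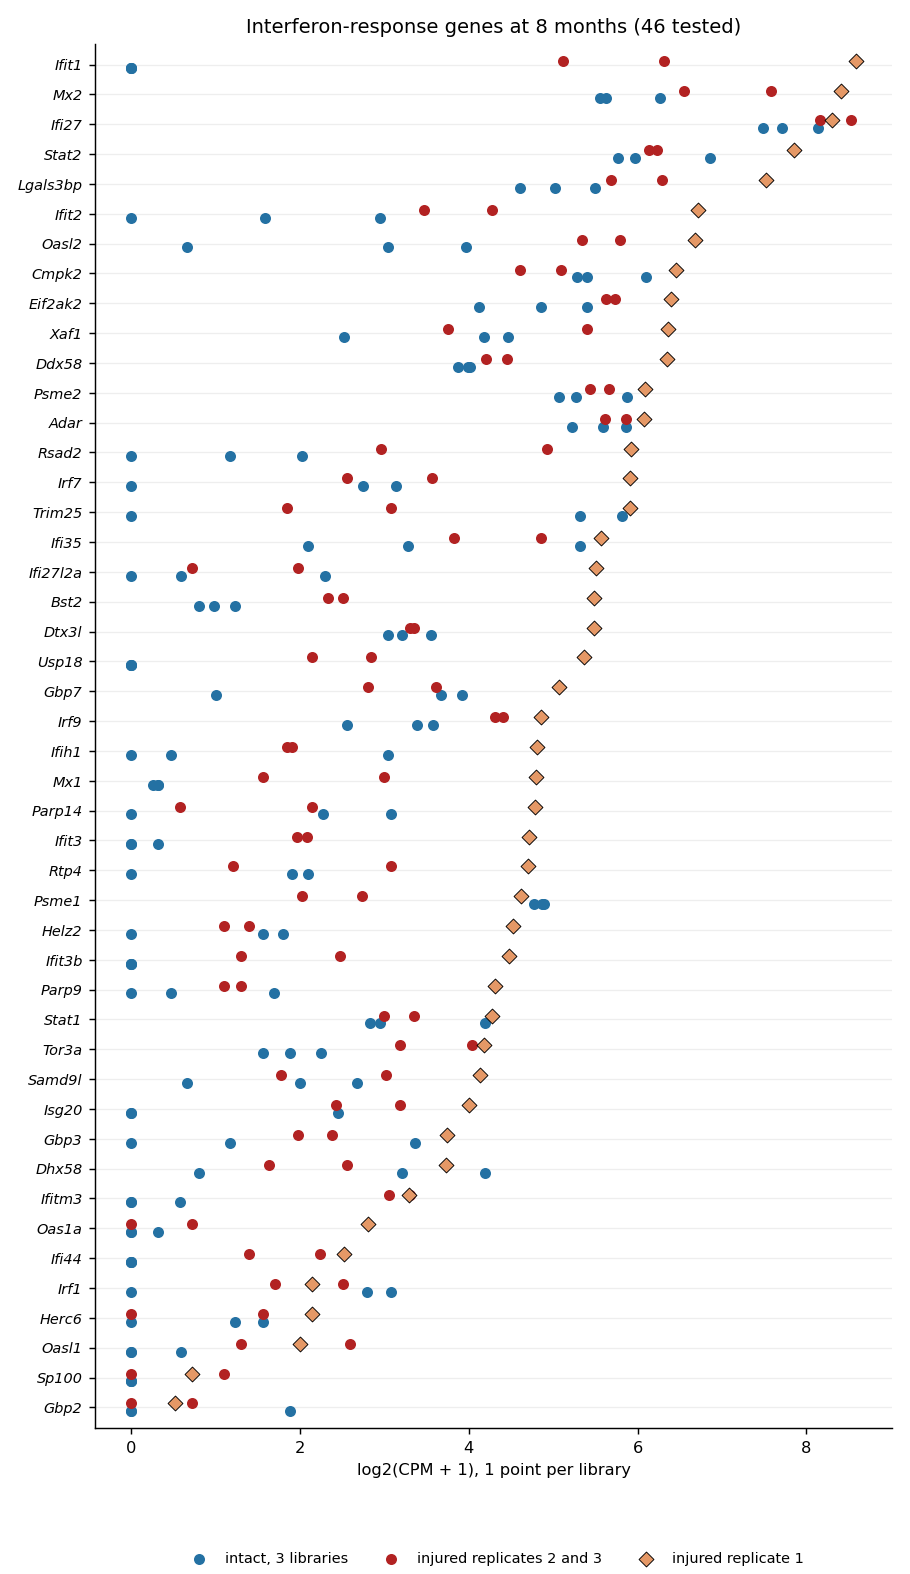
Log2(CPM + 1) of the 46 tested interferon-response genes in each library of 8 months (horizontal axis), ordered by the first injured library (orange diamond). The first injured library is the highest of the injured ones in 40 genes, and the other 2 (red) often lie among the intact libraries (blue).

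The first injured library was the highest of the 3 in 40 of 46 interferon-response genes (87.0%), against 38% of all genes. The same held for 15 of 16 genes of the list of MHC class I and antigen processing (93.8%). It also held for 64 of 83 cytosolic ribosomal protein genes (77.1%). The first injured library was at least 2-fold over both others in 26 interferon-response genes (56.5%), against 6.27% of all genes. No member of the MHC class I list was called, and the MHC class I heavy chains H2-D1 and H2-K1 were at 241 and 50.5 CPM in the first injured library, at 21.5 to 52.9 and 3.24 to 16.3 CPM in the other injured libraries, and at 35.1 to 175 and 1.22 to 54.2 CPM in intact ones, so that the injured libraries spanned most of the intact range. The list of interferon receptors and pathogen sensors did not share this pattern. Of its 9 tested members, 1 was the highest in the first injured library, and 1 rose. The gene that rose was Tmem173, which encodes the sensor adaptor STING, at 3.43, 15.1 and 7.93 CPM against 1 intact count (adjusted p = 0.0256). Ifih1, a sensor of foreign RNA, was placed in the interferon-response list instead. Ifih1 was far higher in the first injured library than in the other injured ones. The result for sensors thus depends on how the lists were drawn. The interferon genes Ifnb1 and Ifng had no count in any of the 6 libraries. Immune cell markers were at 24.2 CPM summed in the first injured library, between the other injured ones (26.7 and 16.8 CPM), with Ptprc, Cd68, Itgam and Tyrobp at 0 in it and Csf1r and Lyz2 at 7.92 CPM each.

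Subtype markers moved with the same library. The 14 large-fibre markers summed to 5788 CPM in injured replicate 1 and to 15657 and 14178 CPM in replicates 2 and 3, with 9958 to 12268 CPM in intact neurons. All 14 were lowest in the first injured library among the injured ones (100%, against 44.0% of all genes), and 10 were at least 2-fold under both others (71.4%, against 11.1%). Nefh, the heavy neurofilament, was at 436, 1625 and 1313 CPM, Ntrk3, a neurotrophin receptor of proprioceptors, at 9.42, 339.9 and 336 CPM, and Calb1 at 0, 60.7 and 64.9 CPM. NP markers went the other way, with 3811, 1360.4 and 1522 CPM summed, and PEP markers were similar at 2164, 2391 and 1884 CPM. Among single genes, chosen by how far replicate 1 lay from the nearer of the others, Pcdha9, Creb3l1, 9130204L05Rik, Sowahd, Marveld3, Ifi27l2a, Sh2d4a and Mrgprb5 led at the top. Mrgprb5, of the Mrgpr family and the NP marker list, was the lowest of these 8 in that order. It was at 197, 2.75 and 18.9 CPM in injured and at 0, 127 and 186 CPM in intact libraries. Scn1a, Car2, Slc6a19 and Calb1 led at the bottom, and Scn1a, a sodium channel, was at 0.214, 113 and 105 CPM in injured and at 41.5, 18.2 and 7.09 CPM in intact libraries. The part of subtype in the interferon result was not tested.

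**Figure D4:**
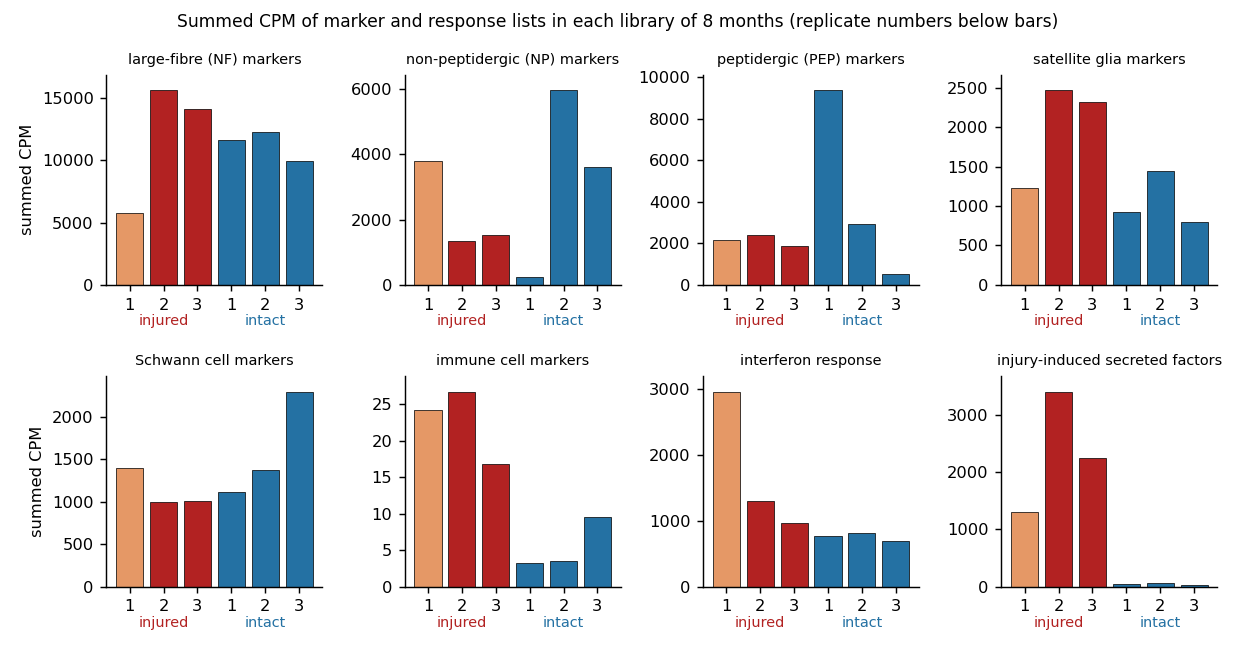
Summed CPM (vertical axes, each from 0) of 8 marker and response lists in the 3 injured and 3 intact libraries of 8 months, with 1 bar per library. The first injured library (orange) is lowest for large-fibre markers and highest for interferon-response genes, and intact libraries differ in NP and PEP markers.

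Without the first injured replicate, 119 more genes were called higher and 6 more lower than with it, and 15 calls were lost, among them Ifit3, Ifit3b, Ifi44, Foxm1, Ccnf, Kcng2, Kifc2 and Yaf2. Of the 10 gained higher genes with the largest changes, 9 were at 0 or at 0.214 CPM in that library. The exception was Aldh1l1, a folate enzyme, at 2.14, 36.6 and 8.26 CPM with no intact count. Pcdhb19, a protocadherin, was at 0, 33.8 and 11.7 CPM, Anxa10 at 0, 2.75 and 23.3 CPM and Chrna1, a nicotinic receptor subunit, at 0, 11 and 4.37 CPM, each with no intact count. Itpr1, the inositol trisphosphate receptor of the endoplasmic reticulum, was at 0.857, 87.1 and 75.1 CPM against 0, 1.99 and 1.15 CPM, with a log2 change of 5.67 (adjusted p = 0.0554) with replicate 1 and 6.25 (adjusted p = 0.00394) without it. Ptms, parathymosin, was the gained lower gene with the largest change, at 171, 46.5 and 49.2 CPM against 257, 374 and 161 CPM (-2.45, adjusted p = 0.0152).

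Other genes with large rises came from varied groups. Cryba2, a crystallin, was at 9.85, 44.8 and 37.9 CPM and had no intact count, at least 145-fold higher (adjusted p = 0.00791). Fgf3, a fibroblast growth factor, was at 0.428, 38.7 and 26.5 CPM, at least 106-fold higher (adjusted p = 0.0425), and Hcrtr2, an orexin receptor, at 0.214, 23.1 and 11.7 CPM, at least 56.4-fold higher (adjusted p = 0.0231); both were near 0 in the first injured library. Slfn9, of the schlafen family, was at 9.21, 11.5 and 19.1 CPM, Ly6e, a membrane protein known to be induced by interferon, at 5.57, 25.6 and 9.55 CPM and Fhl2, a LIM-domain adaptor, at 7.07, 11.3 and 14.2 CPM, all against 0. Krt19, a keratin, Slc1a7, a glutamate transporter, and Baiap2l1, which links membranes to actin, were also at 0 in all intact libraries and at least 56.7-, 56.4- and 64.5-fold higher. Of genes already well expressed in intact neurons, chosen after their values were seen, Srxn1, sulfiredoxin, which repairs oxidised peroxiredoxins, was at 502, 821 and 728 CPM against 219, 162 and 133 CPM (log2 change 2.00 ± 0.32, adjusted p = 0.00781). Star, which moves cholesterol into mitochondria, was also chosen after its values were seen, but was not well expressed in intact neurons. It was at 29.3, 261 and 148 CPM against 0, 2.99 and 0 CPM (adjusted p = 0.00722).

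Several pathways gave no call, at medians near that of all genes. None of 31 tested genes of the integrated stress and unfolded protein responses, 28 of p53 and cell death, 25 of cholesterol synthesis, 19 of glycolysis, 29 of synaptic release, 13 histone deacetylases, 83 cytosolic ribosomal proteins or 75 nuclear respiratory chain genes was called, with medians from -0.36 to 0.29. In the p53 list, Cdkn1a, the cell cycle inhibitor p21, was at 169, 236 and 142 CPM against 0, 30.1 and 7.28 CPM (log2 change 3.87 ± 1.19, adjusted p = 0.157). Of 20 tested genes of DNA methylation and demethylation, 0 were called, 5 lay above and 1 below the intact libraries, against 9.21% and 5.02% of all genes. The methyltransferase Dnmt3a was at 6.64, 10.2 and 8.42 CPM against 18.3, 20.9 and 24 CPM (log2 change -1.32, adjusted p = 0.297, and 0.69 under spike-in scaling), and the demethylase Tet3 at 44.3, 51.6 and 43.7 CPM against 21.5, 23.1 and 18.6 CPM (log2 change 1.14, adjusted p = 0.263). Mitochondrially encoded genes lay above the intact libraries in 10 of 12 (9.21% of all genes), with a median log2 change of 1.04 and no call. In the axonal transport list, 1 of 26 members rose (0.937% of all genes), the kinesin Kif22, at 10.5, 19.7 and 15.9 CPM against 0.488, 1.99 and 0.766 CPM (adjusted p = 0.0164). A role of Kif22 in axonal transport was not tested. The members of highest level, Dync1h1, Klc1 and Kif1a, changed by a log2 of 0.06, 0.03 and 0.00 and were not called.

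No member of the satellite glia or Schwann cell lists was called in either direction. Sox9, a called gene that rose, was on neither list. The log2 change was positive for 12 of 13 tested satellite glia markers and for 1 of 12 tested Schwann cell markers. Satellite glia markers had a median log2 change of 1.42 over 13 tested, with Apoe at 584, 1352 and 1385 CPM against 56.4, 1093 and 94.3 CPM, and Schwann cell markers one of -1.82 over 12 tested. Csf1r, a growth factor receptor of macrophages, was at 7.92, 18.5 and 7.77 CPM against 0, 0 and 0.383 CPM (adjusted p = 0.145). Fibroblast, vessel and blood markers summed to 49.9, 128 and 132 CPM over 16 markers after injury against 28.5, 17.2 and 42 CPM, without overlap (exact permutation p = 0.1, the smallest possible). In the injured libraries most of the sum was Dcn, a matrix proteoglycan of fibroblasts, at 28.5, 109 and 120 CPM against 11.7, 1.74 and 14 CPM (log2 change 3.22, adjusted p = 0.236), while the vessel markers Pecam1 and Cldn5 were at 0 in all 6 libraries. The part of such cells in the results was not tested.

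The same injury contrast was fitted at the other ages, where 33 genes (0.234%) were called at 1 month and 437 (3.1%) at 12 months. The fit at 12 months includes intact replicate 2, in which CT010467.1 took 93.8% of endogenous counts. Of the 770328 counts left in that library, 40.5% were mitochondrial, and 10777 genes were detected. The part of this library in the calls of 12 months was not tested. Of the 138 genes of 8 months, 24 were also called at 1 month, out of its 33, and 59 at 12 months, which is 42.8% of the calls of 8 months and 13.5% of those of 12 months. The change had the same sign for 126 of 138 at 1 month, for 126 at 12 months and for 118 at both, while 57.3% and 56.2% of all genes tested had the same sign at 8 months and at 1 and 12 months. Gal, for example, changed by a log2 of 5.38 at 1 month (adjusted p = 0.0689) and 15.99 at 12 months (adjusted p = 0.00235), and Sprr1a by 13.06 and 10.71 (adjusted p = 0.0001 and 0.000289). The size of such fitted changes depends on the prior count where a group holds few counts, so it does not rank the ages. For Gal, the effect at 8 months minus the mean of the other effects was -2.42 ± 2.15 (edgeR, adjusted p = 0.806) and was not called. Y-linked genes held 149 to 392 counts in each library of 8 months and 160 to 725 at 1 month, but 0 in all 6 libraries of 12 months, so that sex and age cannot be told apart in the comparison with 12 months.

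**Figure D5:**
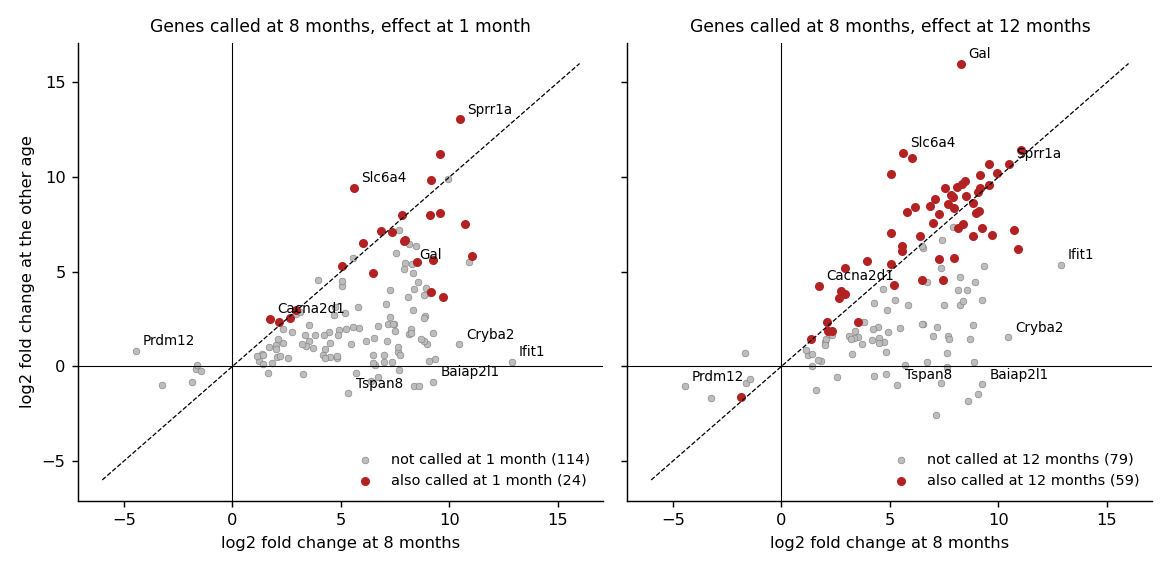
Log2 fold change of the 138 genes called at 8 months (horizontal axes) against that at 1 month and at 12 months (vertical axes), with 1 point per gene, and in colour those also called at the other age. Most points lie in the upper right, and Tspan8 and Prdm12 lie away from the line of equal change (dashed) at both ages.

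A direct test of the effect at 8 months against the mean of the effects at 1 and 12 months called 1 of 14084 genes (0.0071%), and 1290 (9.16%) had an unadjusted p below 0.05. The gene was Tspan8, a tetraspanin of the cell membrane (chromosome 10, 115816832 to 115849893, plus strand). It was at 33.2, 126 and 57.0 CPM in injured and at 0, 3.98 and 1.34 CPM in intact libraries of 8 months (log2 change 5.35 ± 0.76, adjusted p = 0.00289). At 1 month it was at 28.9 to 66.5 CPM in injured and 111 to 133 CPM in intact libraries, and at 12 months at 37.4 to 83.2 and 78.5 to 157 CPM. The injured levels thus covered a similar range at the 3 ages, and the intact libraries of 8 months were the ones that stood apart. The difference of effects was 6.54 ± 0.87 (adjusted p = 0.0114), and it was not called under spike-in scaling (4.72, adjusted p = 0.553). For Prdm12 the difference was -4.35 (adjusted p = 0.193) and was not called, although the effect was 0.83 at 1 month and -1.05 at 12 months.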

How the data were processed

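RNA was measured in low-input libraries of hand-picked DRG neurons. The authors deposited unnormalized counts of fragments for each gene; per the file headers they were made with featureCounts 1.5.2 on read pairs, over exons summed by gene name, unstranded, with the GENCODE vM16 annotation plus ERCC spike-ins, from 1 merged alignment per name. The submitters' processing notes also name Trim Galore, STAR, Bismark and mm10. Positions are those of the deposited table. The 69 other count columns were not used.

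Of 53370 features, the 92 spike-ins and CT010467.1 were removed. The 18 low-input libraries were filtered with filterByExpr (14084 genes left), scaled with TMM and fitted with edgeR 4.0.16 in R 4.3.3, with a robust quasi-likelihood model of 1 mean for each of 6 groups and no replicate block (common biological coefficient of variation 0.542, 12 residual degrees of freedom). Tests were two-sided, and a gene was called where its p, adjusted by Benjamini-Hochberg over all genes tested, was below 0.05. CPM refers to the TMM-scaled library size. Log2 values are edgeR fold changes ± SE. This SE was derived as the absolute log2 change divided by the square root of the quasi-likelihood F. It is only approximate, and not dependable for genes with few or no counts in a group. Library measures were compared by exact permutation. Intervals (95%, exact) and floors (3 counts) cover counting error only, since PCR copies are not independent molecules. Alternatives were RLE, upper-quartile and spike-in scaling, other filters, DESeq2 1.42.0, limma 3.58.1 with voom weights, the 6 libraries alone, a replicate block and leaving out each library. The fits were tested on simulated data.

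The members and the gene lists were chosen with earlier results of these data known. Named genes are the 20 called genes with the largest rise and the 10 with the largest fall without overlap, every list gene called, the 3 members of each list with the highest level, the interferon lists, the genes farthest off in injured replicate 1 and those called only without it; genes added after their values were seen are said to be so, and members named at values that passed no test serve to describe their list. Of the 138 called genes, 36 have an exon that overlaps another gene, and their counts are uncertain. RefSeq promoter windows were matched by symbol for 10423 of the 14084 genes.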

Additional observations from a re-analysis of the deposited data

Results flagged for a closer look

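The injury effect on Tspan8 at 8 months differed from the mean of its effects at 1 and 12 months by 6.54 on the log2 scale (edgeR, adjusted p = 0.0114), in a direct test of that difference over 14084 genes. The effect was 5.35 at 8 months, -1.42 at 1 month and -0.97 at 12 months, and the 3 intact libraries of 8 months held 0 to 3.98 CPM against 78.5 to 157 CPM in the 6 intact libraries of the other ages. Over the alternatives, the difference ranged from 4.72 under spike-in scaling (adjusted p = 0.553) to 7.79 without intact replicate 2 of 8 months (adjusted p = 0.0048), and it was 7.06 with limma-voom (adjusted p = 0.253). An exon of Tspan8 overlaps a gene on the other strand, AC153364.1, which held 8 counts in the 6 libraries of 8 months.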

How the results depend on the processing

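The 138 calls (132 higher, 6 lower) stayed within 1.5 times under RLE scaling (129), upper-quartile scaling (141), with CT010467.1 kept (136) and with a filter of 1 CPM in 6 libraries (138). Scaling to spike-ins gave 598 calls, 598 higher and 0 lower, and turned Kifc2 (0.44), H1f0 (0.13), Yaf2 (0.25) and Dnmt3a (0.69) positive. With no filter beyond 1 count there were 660 calls, 532 higher and 128 lower, and DESeq2 gave 515, 427 higher and 88 lower, among them all 138, with no adjusted p for 47 genes. Limma-voom with quality weights gave 3 (Srxn1 higher, Prdm12 and H1f0 lower), 1 higher and 2 lower, with 1808 genes at an unadjusted p below 0.05. The 6 libraries of 8 months alone gave 4 higher and 0 lower of 11931 genes tested, with 810 at an unadjusted p below 0.05.

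Same-numbered injured and intact libraries of 8 months correlated in their deviations at -0.306, -0.313 and 0.217 over 4871 genes. The highest correlation was 0.475, between injured replicate 2 and intact replicate 1. Such values cannot decide whether the numbers mark pairs, because the libraries also differed in subtype markers. The main fit did not take the numbers as pairs. A fit with the replicate block gave 27 calls, 26 higher and 1 lower, and 25 were shared. Leaving out 1 library in turn gave 27 to 249 calls, 27 to 241 higher and 0 to 19 lower; the fewest came without injured replicate 2 and the most without injured replicate 1. Leaving out intact replicate 2 of 12 months, a library of low depth, gave 202 calls (185 higher, 17 lower). The lower calls were 19 without intact replicate 3, and the higher ones 85. The test of the difference between ages called 1 gene, 289 with no filter beyond 1 count, 141 with DESeq2, 0 with limma-voom and 1 to 12 when 1 library was left out (12 without injured replicate 1, 4 without intact replicate 2, 7 without intact replicate 3, 3 without intact replicate 2 of 12 months). No gene was called in all 17 alternatives. The causes were not tested. Changes of genes with few counts and of fewer than 3 libraries a group were at the limit of the depth of 3956440 to 6023691 counts.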
